A study of Mus musculus with 7 samples.

Results

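The potassium channel genes of adult mouse hippocampus were described as the 94 protein-coding gene records whose symbol begins with Kcn, out of 38924 gene records in the deposited table and 22572 protein-coding ones. They carry 93 symbols, since Kcnb2 has 2 records, and 1 further Kcn record was not analysed here. RNA-seq of polyadenylated RNA had been done on 7 libraries: wild-type Ammon's horn, which comprises the CA fields (n = 3), Ammon's horn of mice homozygous for a null allele of Khdrbs3, called Tstar in the labels (n = 3), and wild-type dentate gyrus (n = 1). All were from untreated adult mice, with the null allele crossed to C57Bl6 for 8 generations. KHDRBS3 is an RNA-binding regulator of alternative splicing. The labels do not tie libraries to animals, so the p-values reflect only how far these libraries differ, which may be technical. The dentate gyrus library has no replicate, and its p-values assume that it varies like the Ammon's horn libraries.

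Potassium channels set the resting potential of neurons and glia and end the action potential. Voltage-gated alpha subunits (Kv1 to Kv4, Kv7 and the EAG, ERG and ELK group) form tetramers that open on depolarisation, and silent subunits (Kcnf, Kcng, Kcns and Kcnv) join Kv2 tetramers without forming channels alone. Auxiliary subunits change their trafficking and gating: Kv beta subunits act on Kv1, KChIPs on Kv4 and KCNE proteins on Kv7 and other channels. BK and SK channels answer to calcium, inward rectifiers (Kcnj) and tandem-pore leak channels (Kcnk) hold the membrane near rest, and dentate granule cells are known for a very negative resting potential.

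Gene-table counts summed to between 50230733 and 67692326 per library and exon-bin reads to between 29698245 and 39904606. The mitochondrial share of the gene-table counts was 13.4, 14.1 and 11.1% for the knockouts, each above the 10.6, 10.9 and 10.4% of wild-type Ammon's horn, and 9.87% for the dentate gyrus. The constitutive second exon bin of Khdrbs3 held 808, 1103 and 964 reads in the wild-type Ammon's horn libraries, 6, 9 and 7 in the knockouts and 506 in the dentate gyrus, low in every library labelled knockout. The gene-table level of Khdrbs3 was not low in the knockouts. It stood at 142, 143 and 134 CPM (counts scaled to library size) in wild type and 198, 203 and 197 in the knockouts. This was a called rise (log2 fold change 0.51, edgeR adjusted p = 0.0025), and its source was not tested. Summed CPM of 7 CA1 pyramidal markers lay at 778 to 804 in wild-type Ammon's horn, 718 to 752 in the knockouts and 104 in the dentate gyrus, and all 7 were lower there. Of 9 records of dentate granule markers, 8 were higher in the dentate gyrus and 1 lower. All 8 oligodendrocyte markers (4336 to 4500, 3706 to 3961 and 1518 CPM summed) and 8 of 12 interneuron markers (893 to 963, 947 to 1007 and 730 CPM) were also lower there, and the interneuron marker Reln was higher (log2 fold change 0.34). No marker of these lists was at 0 in any library. Choroid plexus markers differed between libraries of 1 group, as given with Kcne2 below.

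The annotated exons that bear on the splicing results are shown here, from GENCODE M21 transcripts on mm10, each read 5′ to 3′ on the transcribed strand. They are an exon of an alternative end of the Kv3 subunit Kcnc1, whose share of reads was lower in the dentate gyrus than in any other library, and 2 alternative coding exons of the Kv4 partner Kcnip2 that lie on either side of the single member bin called there.
Kcnc1 bin 7, chr7:46435158-46435346, plus strand, held by 1 of 3 transcripts: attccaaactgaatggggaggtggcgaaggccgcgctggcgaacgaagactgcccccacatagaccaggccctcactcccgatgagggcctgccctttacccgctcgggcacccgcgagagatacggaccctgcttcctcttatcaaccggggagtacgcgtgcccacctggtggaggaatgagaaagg
Kcnip2 bin 16, chr19:45796279-45796332, minus strand, held by 3 of 10 transcripts: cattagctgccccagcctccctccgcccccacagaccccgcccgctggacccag
Kcnip2 bin 21, chr19:45797091-45797186, minus strand, held by 4 of 10 transcripts: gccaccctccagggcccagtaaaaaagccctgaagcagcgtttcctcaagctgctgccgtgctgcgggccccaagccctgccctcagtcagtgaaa
The first has a GC content of 62.4%, the Kcnip2 exons 74.1% and 62.5%. Exon bins are the non-overlapping pieces into which a gene's exons are divided for counting.

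Levels were compared between genes as exon-bin reads per kilobase of exon, scaled to library size (RPKM). Of 93 exon-bin units, 59 reached 1 RPKM and 19 reached 10 in wild-type Ammon's horn, and 13 of the 94 records stayed under 1 CPM in every library. These were Kcna7, Kcna10, Kcne1, Kcne3, Kcnj1, Kcnj5, Kcnk7, Kcnk15, Kcnk16, Kcnk18, Kcnmb3, Kcnrg and Kcnv2. Between libraries of a group the members varied by a median coefficient of variation of 8.82% in wild type and 7.18% in the knockouts; of those at 1 CPM or more, Kcnip1 varied most in wild type (64.3%), in the gene table only, as given at the end. The highest was Kcnab2, the Kv1 partner Kv-beta-2, at 150.4, 146 and 152 RPKM in wild type, 143, 148 and 144 in the knockouts and 128 in the dentate gyrus. Its bins are counted together with those of the overlapping record Gm16334. Every wild-type library held more Kcnab2 than any other member, and the dentate gyrus lay below all 6 Ammon's horn libraries. Kcnip2 followed at 52.1, 54.6 and 59.4 RPKM, 58.3, 58.3 and 57.6 in the knockouts and 78.1 in the dentate gyrus, the last above all others.

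Further down, several neighbours in the order could not be separated by their libraries. Kcna1, the axonal Kv1.1 subunit, stood at 26.4, 27.5 and 30.1 RPKM, then 27.8, 29.3 and 29.2 in the knockouts and 33.4 in the dentate gyrus. Kcnh3, an ELK subunit of forebrain neurons, stood at 25.2, 27.2 and 25.6 RPKM, then 26.0, 25.4 and 26.9, and 25 in the dentate gyrus. Kcnip3, a KChIP also known as the calcium-binding repressor DREAM, stood at 24.8, 25.7 and 24.6 RPKM, then 26.9, 24.2 and 25.6, and 19. The wild-type ranges of Kcna1 and Kcnh3 overlapped, as did those of Kcnh3 and Kcnip3. Kcnk1, the leak channel TWIK1, had 23.1, 22.9 and 24.5 RPKM, then 22.1, 20.9 and 22.4 in the knockouts, and 30.7 in the dentate gyrus. Kcnj10, the astrocyte inward rectifier Kir4.1, had 20.2, 22.3 and 24.7 RPKM, then 18.9, 19.6 and 19.3, and 18.2. Kcnk1 and Kcnj10 overlapped in wild type, and each was lower in all 3 knockouts than in any wild-type library without passing the test given below. Kcnc2, a Kv3 subunit of fast-spiking neurons, had 17, 15.7 and 16.9 RPKM, then 17.9, 17.7 and 17.5, and 10.6 in the dentate gyrus. Kcnd2, the dendritic A-type subunit Kv4.2, had 17, 14.9 and 16.8 RPKM, then 14.5, 16.2 and 15.9, and 19.5. Kcnc2 and Kcnd2 overlapped in wild-type Ammon's horn and moved apart in the dentate gyrus library, to its lowest and highest value respectively.

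**Figure D1:**
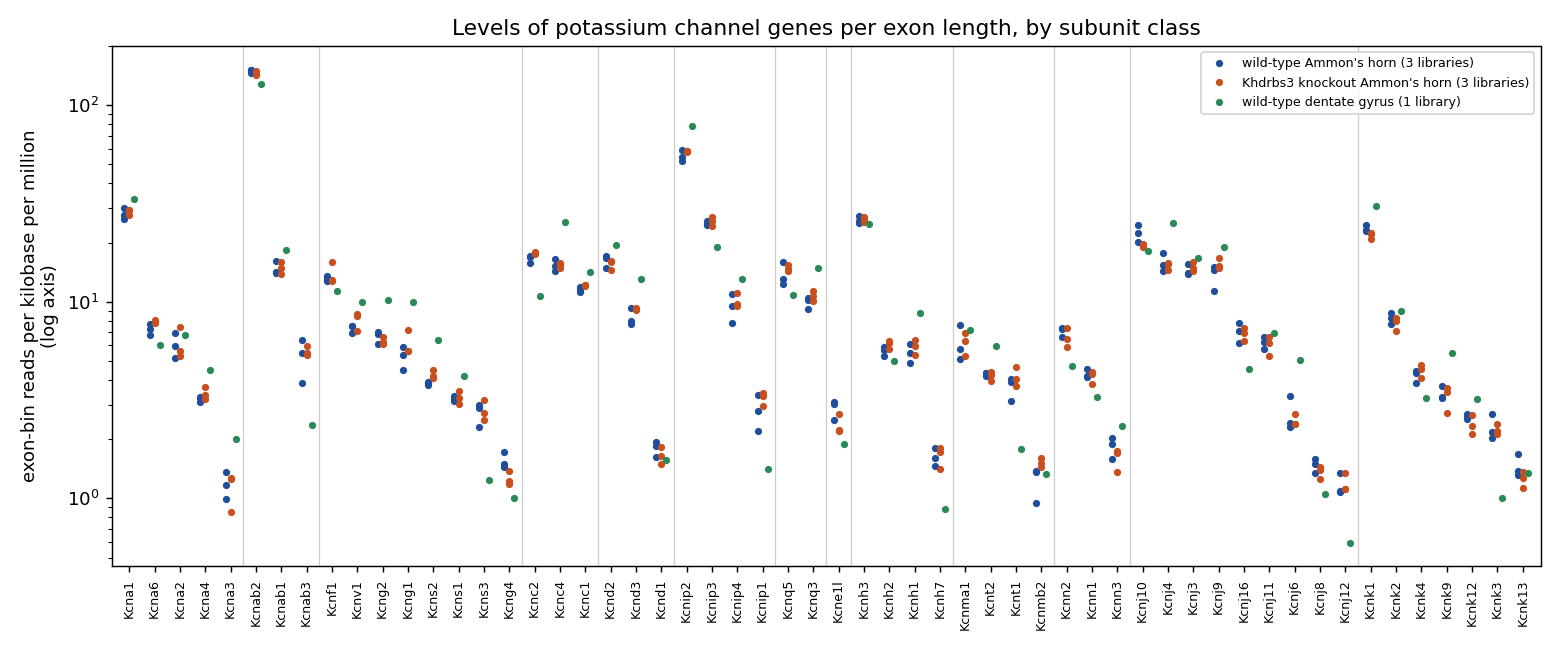
Exon-bin RPKM (log axis) of the members reported here that averaged at least 1 RPKM in wild-type Ammon's horn, by subunit class; each point is 1 library. Kcnab2 is highest at 146 to 152 in wild type, and the Ammon's horn groups lie close together while the dentate gyrus point stands apart for many genes.

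The dentate gyrus comparison asks how the tissue next to Ammon's horn differs in its channel genes. Many members differed: 43 of 89 tested (48.3%) passed an adjusted p of 0.05 in edgeR, where 22.0% of all genes tested did. Of these, 27 were higher in the dentate gyrus (11.2% of all genes) and 16 lower (10.9% of all genes). Differences of 2-fold or more were few, with 3 members higher (2.22% of all genes) and 1 lower (1.76% of all genes). The median log2 fold change was 0.15 over the members and -0.01 over all genes tested. The dentate gyrus library lay above the wild-type Ammon's horn range in 45 of the 89 (50.6%, against 35.9% of all genes tested), below it in 32 (36.0%, against 35.9%) and within it in 12. In bulk tissue, fewer cells of a type and less RNA per cell cannot be told apart. Markers of CA1 cells, oligodendrocytes and ependyma and most interneuron markers were lower in the dentate gyrus. Most markers of granule and mossy cells were higher. The part of these cell types in the differences of the members was not tested.

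Kcnj2, the strong inward rectifier Kir2.1, had the largest called difference. It stood at 4.22, 4.16 and 3.68 CPM in wild type, 4.28, 5.19 and 4.97 in the knockouts and 12.1 in the dentate gyrus. The dentate gyrus value was above every other library, with log2 fold change 1.59 (SE 0.15; edgeR adjusted p = 5.14e-05). Kcng3, a silent subunit, stood at 1.30, 1.17 and 1.39 CPM, then 1.08, 1.78 and 1.18, and 2.99 in the dentate gyrus (log2 fold change 1.22, SE 0.27, edgeR adjusted p = 0.0092). Kcnh4, an ELK subunit, stood at 1.09, 1.33 and 1.71 CPM, then 1.40, 1.20 and 1.58, and 2.94 (log2 fold change 1.09, SE 0.26, edgeR adjusted p = 0.0127). Both are genes of low level, and the dentate gyrus again lay above all 6 other libraries. Kcnab3, the least abundant Kv beta subunit, stood at 16, 17 and 11.1 CPM, then 15, 15.9 and 16.8, and 7.12 in the dentate gyrus, below all others. Its log2 fold change was -1.05 (SE 0.21, edgeR adjusted p = 0.0058). On exon reads alone 7 members were called at 2-fold: these 4, with Kcnt1 (-1.05), Kcnk3 (-1.18) and Kcns3 (-1.14) on the log2 scale. The share of all genes called at 2-fold on exon reads is not given here, so this count has no background beside it.

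Kv3 subunits, which allow fast repolarisation, did not all go the same way. Kcnc4 stood at 43.7, 47.0 and 51.3 CPM in wild type, 46.2, 48.9 and 46.7 in the knockouts and 81.1 in the dentate gyrus. The dentate gyrus lay above all Ammon's horn libraries (log2 fold change 0.78, SE 0.09). Kcnc1 was higher by 0.33 (SE 0.07). Kcnc2 lay below them, at 101, 92.6 and 101 CPM, then 108, 108 and 108, and 66.1 in the dentate gyrus, with log2 fold change -0.57 (SE 0.08; edgeR adjusted p = 0.00047). Of the interneuron markers given above, 8 of 12 were lower and 1 higher in the dentate gyrus. Gad1 (0.00), Npy (-0.07) and Erbb4 (-0.20) were not called. The part of these cells in the Kv3 differences, in either direction, was not tested.

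The 2 records of Kcnb2, a Kv2 subunit, were called higher, by 0.40 and 0.70 on the log2 scale. Silent subunits, which join Kv2, were called in 7 of 10 members, 5 higher and 2 lower, where 22.0% of all genes tested were called. Kcng1 went from 21.3, 25.6 and 28.3 CPM in wild type to 47.9 in the dentate gyrus (log2 fold change 0.93, SE 0.15), and Kcns2 (0.70), Kcng2 (0.61) and Kcnv1 (0.44) were also higher. Kcns3, a gene of parvalbumin interneurons, and Kcng4 were lower, by log2 fold changes of -0.38 and -0.59. In the Kv4 complex, the pore subunit Kcnd3 was higher (0.59, SE 0.09) and Kcnd2 and Kcnd1 were not called (0.28 and -0.28). Its KChIP partners Kcnip2 (0.51, SE 0.08) and Kcnip4 (0.40) were higher and Kcnip3 lower (-0.31). Of 7 Kv1 alpha subunits tested only Kcna4, an A-type subunit, was called (0.46), while of their beta partners Kcnab1 was higher (0.31) and Kcnab2 lower (-0.26).

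Kcnq3, a subunit of the M-current channels that damp repetitive firing, was higher at 223 CPM against 157, 145 and 163 (log2 fold change 0.53, SE 0.08). Kcnq1 was called higher in the gene table (0.87) but not on exon reads (-0.29). Its gene-table counts lie mostly outside its exon bins, and other records overlap it, as given below. Among the EAG group, Kcnh1 was higher (0.64) and the ERG subunit Kcnh7 lower (-0.76, SE 0.13). The sodium-activated subunits went apart. Kcnt1 (Slack) stood at 18.8, 21.9 and 17.1 CPM in wild-type Ammon's horn, against 10.4 in the dentate gyrus (log2 fold change -0.89, SE 0.15), and Kcnt2 (Slick) at 22.1, 20.5 and 20.8 against 28.6 (0.44, SE 0.10). Kcnma1, the BK pore subunit, was not called (0.03), and of SK subunits Kcnn1 (-0.38) and Kcnn2 (-0.33) were lower.

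Inward rectifiers were called in 7 of 14 members, where 22.0% of all genes tested were called. Beside Kcnj2, the G-protein-gated subunits Kcnj6 (GIRK2) and Kcnj9 (GIRK3) were higher by 0.92 (SE 0.18) and 0.45 on the log2 scale, and Kcnj3 (GIRK1), the abundant partner, was not called (0.21). Kcnj4 (Kir2.3) was higher (0.61), while Kcnj12 (Kir2.2, -0.88) and Kcnj14 (Kir2.4, -0.82) were lower, so the Kir2 genes did not go the same way. Kcnj16, the partner of Kir4.1, was lower (-0.59), and Kcnj10 itself was not called in the gene table (-0.36, edgeR adjusted p = 0.0512). Summed astrocyte markers lay at 2017 to 2094 CPM in wild-type Ammon's horn, against 2004 in the dentate gyrus. Of these 7 markers Aldoc was called lower (-0.35) and none higher, and 3 had a positive log2 fold change. The part of astrocytes in the differences of Kcnj16 and Kcnj10 was not tested. Of the tandem-pore genes, Kcnk3 (TASK1) was lower, at 7.19 CPM against 14.7, 12.4 and 10.8 (log2 fold change -0.81, SE 0.18), and Kcnk1 (0.39) and Kcnk10 (0.45) were higher. Of the KCNE genes only Kcne1l was called, lower by -0.61 on the log2 scale.

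**Figure D2:**
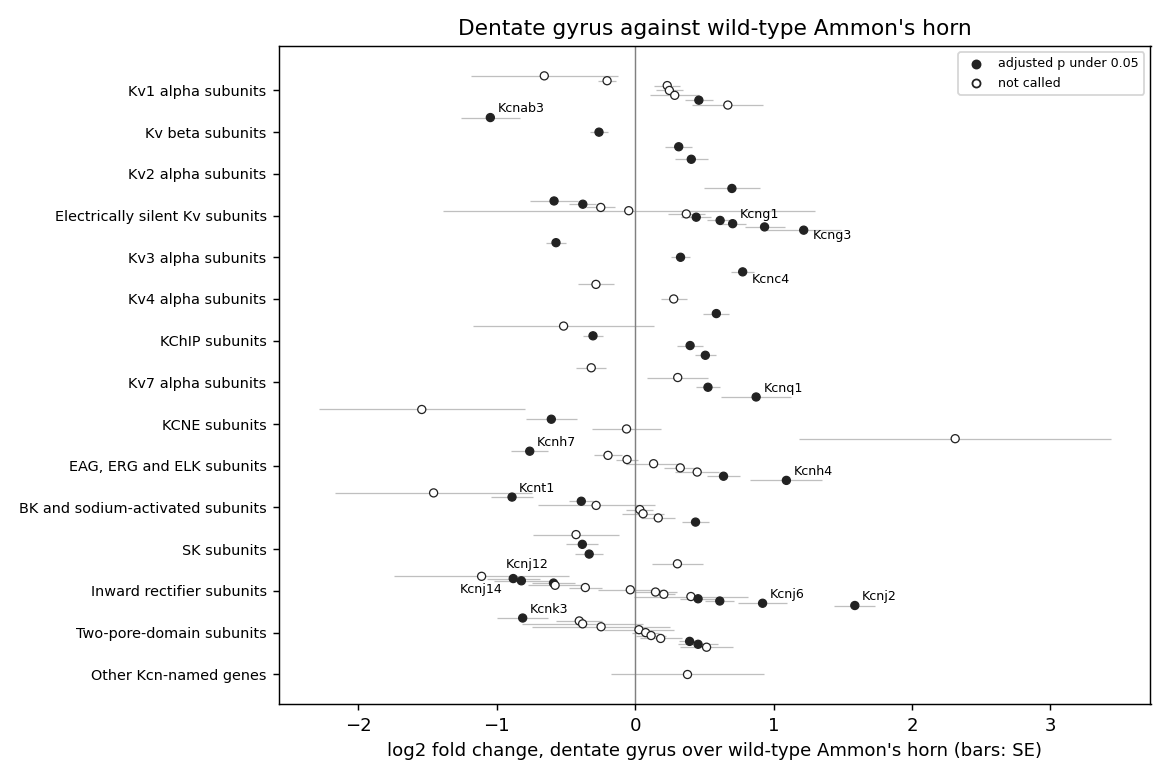
Log2 fold change of the tested members reported here, dentate gyrus (1 library) over wild-type Ammon's horn (3 libraries), by subunit class, with bars of 1 SE; filled points passed an adjusted p of 0.05. Kcnj2 is the highest filled point at 1.59 and Kcnab3 the lowest at -1.05.

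The exon-bin sums, which leave out reads in introns, called 45 of 82 member units in the same comparison (29.3% of all units), 29 higher and 16 lower. Of the 43 members called in the gene table, 38 were also called on exon reads in the same direction. Kcne1l, Kcnj14, Kcnk10, Kcnmb4 and Kcnq1 were not. Kcna1, Kcnd2, Kcnh5, Kcnip1, Kcnj10, Kcnk9, Kcnq5 and Kcns1 were called on exon reads only. Across all alternatives that tested them, 30 of the 43 were called each time. The others include Kcnn1, Kcnn2, Kcnab1, Kcnab2, Kcng4 and both Kcnb2 records, which kept their direction while the adjusted p rose to at most 0.0675, 0.0691, 0.0842, 0.0536, 0.0752, 0.0712 and 0.0669. The calls of Kcnn1, 1 Kcnb2 record, Kcnq1, Kcnk10 and Kcne1l were lost without wild-type replicate 1. Those of Kcnn2, Kcnab1, both Kcnb2 records, Kcnq1, Kcnk10 and Kcne1l were lost without wild-type replicate 2, and those of Kcnn1, Kcnn2, Kcnab1, Kcng4 and Kcnk10 without wild-type replicate 3. Leaving out a knockout library, which enters only the estimate of spread, lost Kcng4 each time, Kcnn1 and Kcnab1 without replicate 2, Kcnn2 and Kcne1l without replicate 3, and Kcnk10 without either of these 2. Kcnab2 was lost only in the fit of the 4 wild-type libraries alone.

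Genes whose products bind potassium channels were taken from a list of 29 partners. In the dentate gyrus comparison 16 were called, where 22.0% of all genes tested were. Of these, 8 were higher (11.2% of all genes) and 8 lower (10.9% of all genes), and the median log2 fold change of the list was 0.01. Ano3, a regulator of Slack channels, was highest, with a mean of 81.1 ± 7.23 CPM in wild type (SD, n = 3) and 213 in the dentate gyrus (log2 fold change 1.39, SE 0.10), opposite to Kcnt1. The Kv1-binding proteins split: Lgi1 (0.63) and Adam22 (0.27) were higher, and Cntn2 (-0.92), Cntnap2 (-0.33) and Adam23 (-0.31) lower. Abcc8, the sulphonylurea receptor of KATP channels, was higher (0.71) and Abcc9 lower (-0.48). Higher too were the Kv2 partner Amigo1 (0.34), the BK partner Lrrc55 (0.67), the GIRK regulator Rgs7bp (0.55) and Ank3 (0.53), the ankyrin that anchors Kv7 channels at the axon initial segment. The Kv4 partner Dpp10 (-0.70), Calm2 (-0.46), Calm3 (-0.28) and Gnb5 (-0.44) were lower. In the knockout none of the 29 was called, where 0.0745% of all genes tested were, and their median log2 fold change was 0.01.

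The knockout comparison asks whether loss of Khdrbs3 changes channel gene levels in Ammon's horn. It shares the wild-type Ammon's horn libraries with the dentate gyrus comparison. No member was called by edgeR, 0 of 87 tested, where 0.0745% of all genes tested were. At an unadjusted p under 0.05 there were 6 members (6.90%, against 8.38% of all genes). DESeq2 called 1 member, Kcnh6, and the share of all genes that it called is not given here. The median log2 fold change was 0.04 over the members and 0.00 over all genes, and 76 of the 87 lay within 0.25 of 0. In 9 members (10.3%) all 3 knockout libraries lay above all 3 wild-type ones, against 6.81% of all genes tested, and in 5 (5.75%) below, against 6.44%. The mitochondrial share was higher, and the summed oligodendrocyte and CA1 markers lower, in all 3 knockouts than in any wild-type Ammon's horn library. Summed microglia markers (387 to 399 CPM in wild type, 349 to 363 in the knockouts) were also lower without overlap. So were summed dentate granule markers (795 to 817 and 733 to 762 CPM). Most of that sum was Pdzd2, the 1 record of the list that was lower in the dentate gyrus. Pdzd2 stood at 699, 702 and 692 CPM in wild type and 667, 627 and 621 in the knockouts. Of the 9 records 3 had a positive log2 fold change in the knockout, and none was called. The part of all these in the values of the members was not tested.

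Kcnh6, an ERG subunit, had the smallest adjusted p. It stood at 39.97, 50.1 and 44.8 CPM in wild type and 61.9, 56.3 and 64.9 in the knockout, without overlap (log2 fold change 0.44, SE 0.08, edgeR adjusted p = 0.177; DESeq2 adjusted p = 1.26e-04). On exon reads it stood at 1.39, 2.24 and 1.72 CPM against 2.05, 1.75 and 1.70, with overlap and a log2 fold change of 0.03. The other members higher without overlap and largest in difference were Kcnj2 (0.26, values above), Kcnu1, Kcnk12 and Kcns2. Kcnu1, a BK-related subunit of sperm, stood at 10.9, 12.1 and 11.8 CPM against 12.4, 13.3 and 14.4 (0.21 on the log2 scale, -0.14 on exon reads). Kcnk12, a silent tandem-pore subunit, stood at 11, 11.1 and 10.6 CPM against 12.4, 11.6 and 12.8 (0.17, and -0.15 on exon reads), so neither kept its direction. Kcns2 stood at 18.8, 18.5 and 19.6 CPM against 19.9, 22.5 and 20.8 (0.15).

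Lower without overlap were Kcng4, Kcnj10, Kcnj14, Kcnk1 and Kcnab2, none of them called. Kcnj10 stood at 144, 159 and 187 CPM in wild type and 135, 139 and 139 in the knockout (log2 fold change -0.25, SE 0.08, edgeR adjusted p = 0.476). Kcng4 stood at 5.31, 5.40 and 6.68 CPM against 4.82, 4.75 and 4.56 (-0.30), and Kcnj14 at 4.20, 3.29 and 3.55 against 3.25, 3.26 and 3.20 (-0.18). For Kcnj14 the gap between the groups was narrow. Kcnk1 stood at 50.6, 49.7 and 53.9 CPM against 47.2, 46.0 and 49.6 (-0.11), and Kcnab2 at 533, 528 and 520 against 507, 518 and 514 (-0.04). By class, medians ranged from -0.06 for tandem-pore to 0.14 for KCNE subunits, leaving aside Kcnrg, the single member of no class.

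**Figure D3:**
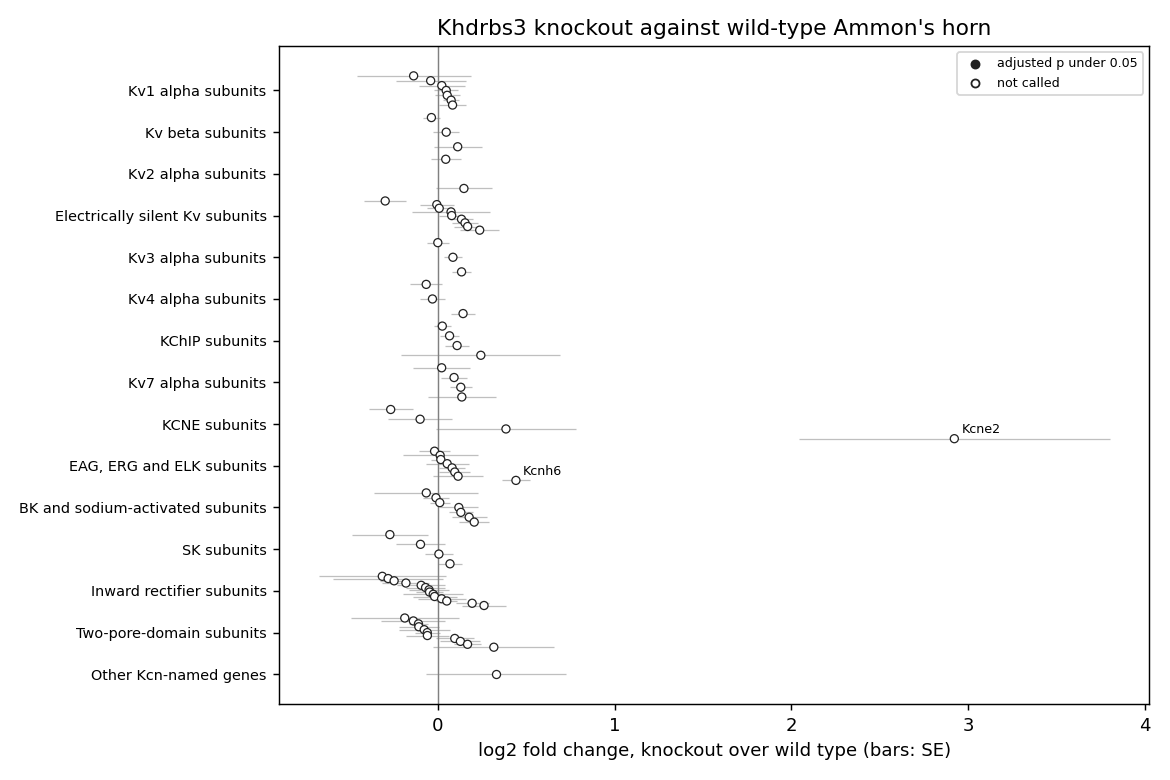
Log2 fold change of the tested members reported here, Khdrbs3 knockout over wild-type Ammon's horn (3 libraries each), by subunit class, with bars of 1 SE. No point is filled, as none passed an adjusted p of 0.05; Kcne2 stands alone at 2.92 with a wide bar and Kcnh6 is at 0.44.

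Kcne2, a KCNE subunit that is abundant in choroid plexus epithelium, had the largest log2 fold change in the knockout, 2.92 (SE 0.88), and was not called (edgeR adjusted p = 0.412). It held 30, 18 and 6 counts in the wild-type libraries, 215, 8 and 163 in the knockouts and 94 in the dentate gyrus. Knockout replicates 1 and 3 lay above all wild-type libraries, and replicate 2 lay within the wild-type range. Summed CPM of 10 choroid plexus markers, Kcne2 not among them, was 162, 47.1 and 30.1 in wild type, 814, 27.8 and 755 in the knockouts and 278 in the dentate gyrus, and all 10 had a positive log2 fold change in the knockout. Ttr, their most abundant gene, went from 126, 21.9 and 5.67 CPM to 731, 2.84 and 673. Without knockout replicates 1 and 3 the log2 fold change of Kcne2 was -1.24, and without replicate 2 it was 3.49 and called (edgeR adjusted p = 0.0096).

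**Figure D4:**
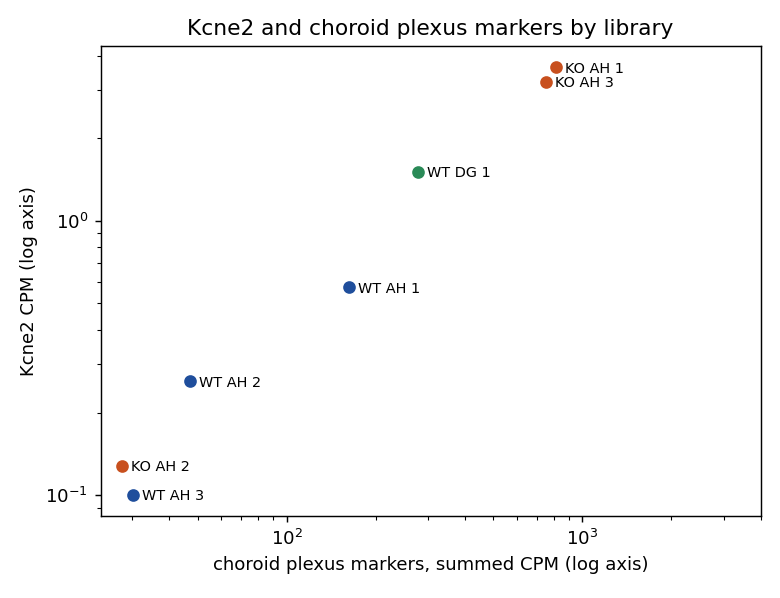
Kcne2 CPM against the summed CPM of 10 choroid plexus markers in each library (both log axes; WT AH, wild-type Ammon's horn; KO AH, knockout; WT DG, dentate gyrus). Knockout replicates 1 and 3 are highest on both axes, at 3.62 and 3.21 CPM of Kcne2, and knockout replicate 2 and wild-type replicate 3 lowest.

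Exon usage, the change of a bin against the change of its whole gene, was tested in 551 member bins in the knockout and none was called (0.00301% of all bins were). In edgeR 3 bins had an unadjusted p under 0.05 (0.544%, against 1.72% of all bins), and the smallest adjusted p was 0.99999. Limma-voom called none either, with 7 bins at an unadjusted p under 0.05 (1.27%, against 2.90% of all bins). None of 62 members was called as a gene, where 5 of all 12168 genes tested were. Usage of 97.8% of the bins lay within 0.5 of 0 on the log2 scale. Among the 235 bins with a mean of at least 100 wild-type reads it ranged from -0.31 to 0.21. The bins of smallest p were Kcnn1 bin 11, Kcnt1 bin 8, Kcnq3 bin 14, Kcnt2 bin 28 and Kcng4 bin 6. Kcnn1 bin 11, in an SK subunit, held 10, 12 and 15 reads in wild type and 6, 6 and 4 in the knockout (usage -1.08, SE 0.38). Kcnt1 bin 8 held 7, 22 and 18 reads against 8, 8 and 11 (-0.89), and Kcng4 bin 6 held 11, 18 and 17 against 6, 11 and 5 (-0.73). These are thin bins, where a few reads set the value. Kcnq3 bin 14 held 70, 78 and 112 reads against 61, 80 and 65 (-0.38), and Kcnt2 bin 28 held 40, 50 and 50 against 31, 36 and 31 (-0.42).

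In the dentate gyrus 1 of 562 member bins was called (0.213% of all bins), and none at 2-fold. It was Kcnip2 bin 17, 582 bp at chr19:45796333-45796914, held by 1 of 10 transcripts and adjoining the exon of bin 16 printed above. No transcript has coding sequence in bin 17, and 7 transcripts span it without holding it. It held 42, 77 and 35 reads in wild type, 61, 62 and 44 in the knockouts and 133 in the dentate gyrus. As a share of the gene's exon reads this was 0.75% ± 0.27 (SD, n = 3) in wild type and 1.38% in the dentate gyrus (exact Clopper-Pearson 95% interval 1.16 to 1.63%, counting error only). The usage change was 0.87 (SE 0.21, edgeR adjusted p = 0.0442), and without wild-type replicate 3 it was 0.60 and not called (adjusted p = 0.405). The coding exons of bins 16 and 21 were not called, with usage changes of 0.11 and 0.15. Bin 16 took 2.31% ± 0.15 of the reads in wild type (SD, n = 3), 2.28% ± 0.14 in the knockouts and 2.5% in the dentate gyrus. None of the 62 members tested was called as a gene, where 172 of all 12270 genes tested were.

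The Kcnc1 models hold alternative ends, with bin 6 in 1 transcript and bins 7 and 8 in another of the 3. Bin 6 took 38.6% ± 1.10 of the gene's reads in wild type (SD, n = 3), 40.3% ± 1.25 in the knockouts and 48.3% in the dentate gyrus. Bin 7, the exon printed above, took 6.47% ± 0.26, 6.10% ± 0.55 and 4.55% (exact interval 3.96 to 5.19%), and bin 8 took 17.9% ± 1.44, 18.1% ± 1.08 and 13.1%. The share of bin 6 was thus higher and those of bins 7 and 8 lower in the dentate gyrus than in any Ammon's horn library. EdgeR called none of the 3, with usage changes of 0.32, -0.51 and -0.45 and adjusted p of 0.745, 0.316 and 0.173. Limma-voom called bins 6 and 8 (adjusted p = 1.1e-04 and 0.0428), and edgeR called bin 8 without wild-type replicate 3 (adjusted p = 0.0215). Kcnt1 bin 8 held 0 reads in the dentate gyrus, which counting error lets be a share of up to 0.629% of the gene's reads (exact interval), and was called by limma-voom only.

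Some members had far more counts in the gene table than in their exon bins. Over 73 members with at least 700 gene-table counts the median ratio of the 2 was 1.94, against 1.58 for all such genes. It was at least 5 in 8 members (11%, against 17.8% of all genes): Kcna5 at 281, Kcnh6 at 53.4, Kcnmb4 at 30.2, Kcnip1 at 19.4, Kcnh8 at 16.3, Kcnq1 at 14.5, Kcnu1 at 7.96 and Kcnj6 at 5.14. The Kcna5 record spans that of Kcna1 on chromosome 6, and its gene-table CPM of 143, 151 and 170 in wild type lay beside 138, 144 and 162 for Kcna1. On exon reads Kcna5 stood at 0.825, 1.11 and 1.01 CPM. Other records also overlap Kcnip1 (Kcnmb1 among them), Kcnmb4, Kcnq1 (KCNQ1OT1 records) and Kcnj6, and none overlaps Kcnh6, Kcnh8 or Kcnu1. The source of the counts outside exon bins was not tested. For Kcnip1, a KChIP of interneurons, the gene table gave 14270, 3446 and 15059 counts in wild type, 16539, 11802 and 10744 in the knockouts and 8312 in the dentate gyrus. Wild-type replicate 2 was far below the others there, but its exon reads were 682 beside 631 and 486, so the gap lay outside the exons. On exon reads Kcnip1 was lower in the dentate gyrus (311 reads, log2 fold change -0.96, SE 0.20, edgeR adjusted p = 0.0040), and in the gene table it was not called (-0.52, adjusted p = 0.629) unless wild-type replicate 2 was left out (-0.97, adjusted p = 0.0054).

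**Figure D5:**
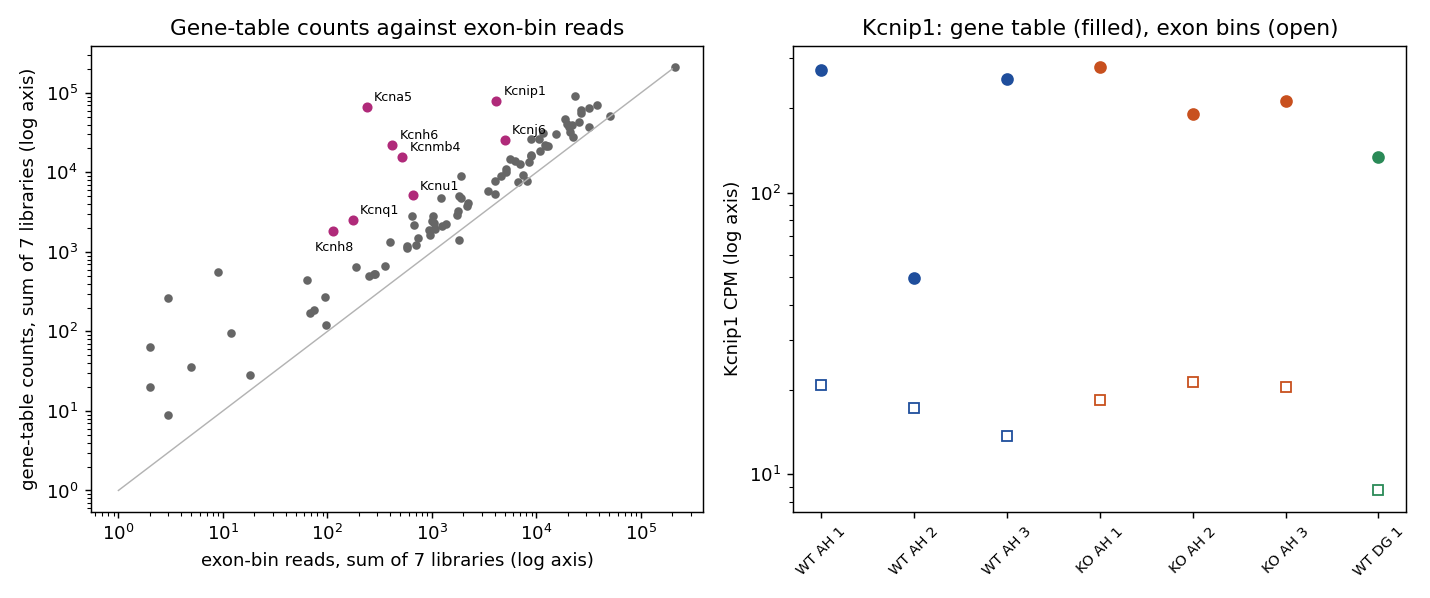
Left, gene-table counts against exon-bin reads of the members reported here, summed over 7 libraries (log axes, line of equality), with the members at a ratio of at least 5 in colour; right, Kcnip1 CPM by library (log axis; WT AH, KO AH and WT DG as wild-type and knockout Ammon's horn and dentate gyrus). In the right panel the filled gene-table point of wild-type replicate 2 falls to 49.9 CPM while its open exon-bin point, 17.1, stays among the others.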

How the data were processed

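Per the labels, polyadenylated RNA was taken with Qiagen RNeasy kits and sequenced from Illumina TruSeq mRNA libraries. The authors deposited raw counts, as 1 table of gene counts and as exon-bin counts per library. The genome was mm10, and the tools were DESeq2 1.0.19, bedtools 2.17.0, TopHat2 2.0.8b and Trim Galore 0.3.5, per the submitters' processing notes, which give no roles. Reads set aside as ambiguous (1.73 to 2.01%) or in no bin (3.52 to 4.83%) stayed out of all fits.

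In R 4.3.3, edgeR 4.0.16 (TMM, filterByExpr, quasi-likelihood F test, Benjamini-Hochberg over all genes) was fitted to 6 libraries for the knockout and to 7 in 3 groups for the dentate gyrus. The biological coefficient of variation was 10.6% and 10.8%. CPM are TMM-scaled. Exon usage was tested with diffSpliceDGE on bins with at least 10 reads in 3 libraries, in genes with at least 2 such bins, and genes were called by the Simes method. RPKM used GENCODE M21 exon lengths trimmed to the deposited gene ends. For 25 of 93 units, Kcna1 and Kcnk1 among them, the counted bins could not be rebuilt from M21. Their lengths may differ from those of the counted bins. Both scripts were tested on simulated data. DESeq2 1.42.0 and limma 3.58.1 served as alternatives, beside other filters, scalings, exon-bin sums and left-out libraries. Of the members, 7 were too low to test for the knockout and 5 for the dentate gyrus.

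The members and gene lists were chosen with earlier results of these data known. Values in every library were given for called members (2-fold in the dentate gyrus), the 10 highest per exon length, the 5 largest differences without overlap in each direction in the knockout (mean of at least 1 CPM), and the called bins or 5 bins of smallest p. Others are examples of their class. Some genes that this rule covers are counted but not otherwise reported here.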

Additional observations from a re-analysis of the deposited data

How the results depend on the processing

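The count of members called in the knockout was 0 to 1 when each library was left out in turn (1 without knockout replicate 2, Kcne2) and 1 with DESeq2 (Kcnh6). With exon-bin sums Kcnu1 and Kcnk12 turned to -0.14 and -0.15 on the log2 scale. Without the 2 knockout libraries richest in choroid plexus markers Kcne2 turned to -1.24, a value that rests on 1 knockout library and is given as an effect size only. In the dentate gyrus the 2-fold count was 7 with exon-bin sums and 2 to 7 with a library left out (2 without wild-type replicate 1, 7 without wild-type replicate 3), and Kcnq1 and Kcnmb4 turned to -0.29 and 0.0923 with exon-bin sums. Member bins called there at any fold numbered 0 with at least 30 reads, 4 with limma-voom and 0 to 2 with a library left out (2 without wild-type replicate 2, 0 without wild-type replicate 1 or any 1 knockout replicate). At 2-fold they numbered 1 with limma-voom and 0 to 2 with a library left out. Members called as a gene numbered 1 with limma-voom and 0 to 1 with a library left out. Causes were not tested. No paired analysis was possible because the labels give no replicate numbers. Depth limits thin bins, and 1 dentate gyrus library limits every value from that tissue.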

Other observations

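Several members lie next to each other in the genome. On chromosome 11, Kcnj16 (110968033 to 111027968) and Kcnj2 (111066164 to 111076821) are 38.2 kb apart on mm10, and in the dentate gyrus their log2 fold changes were -0.59 and 1.59. On chromosome 1, Kcnj9 and Kcnj10 are 11.9 kb apart, at 0.45 (called) and -0.36 (not called). On chromosome 6, Kcna1 and Kcna6 are 62.5 kb apart, at 0.23 and -0.20, neither called. Other neighbours went either way. Kcnj6 and Kcnj15 on chromosome 16 were at 0.92 (called) and -0.04 (not called). Kcna3 and Kcna2 on chromosome 3, 63.4 kb apart, went the same way, at 0.67 and 0.29, neither called. The 2 overlapping Kcnb2 records were at 0.40 and 0.70, both called.

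Of the members on chromosome 15, which holds Khdrbs3 (68928420 to 69093512), the nearest were Kcnq3 at 2.64 Mb and Kcnk9 at 3.42 Mb. Their log2 fold changes in the knockout were 0.13 (edgeR adjusted p = 0.615) and -0.08 (edgeR adjusted p = 0.921), and the other 4, Kcnj4, Kcnv1, Kcnh3 and Kcns2, were not called either.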
